A study of Schizosaccharomyces pombe with 12 samples.

Results

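The transcriptional response of fission yeast (*Schizosaccharomyces pombe*) cells without *set3* to latrunculin A (LatA) was read from 6 of the 12 Affymetrix Yeast Genome 2.0 arrays of the series. These were the 3 arrays labelled *set3Δ* with LatA and the 3 labelled *set3Δ* with DMSO, the solvent of the drug, and all 4880 *S. pombe* probe sets entered the comparison. The mutant carried set3::KanMX, in which a drug resistance cassette replaces the gene, in a background of ura4-D18, leu1-32 and ade6-216, auxotrophic alleles that the wild type of the series shared. Both strains were grown in rich YES medium to mid-log phase and then kept with LatA or DMSO for 3 hours at 30°C. The labels give the LatA dose as 0.5 mM. The methods of the study give the same figure in µM. The study places such doses far below that needed to depolymerize actin completely. The mM of the labels is therefore read here as an error of unit. Each of the 4 groups holds 3 arrays labelled as biological replicates. Whether these came from separate colonies or from 1 clone of the deletion strain is not stated, so the p-values measure the spread between these arrays.

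LatA binds actin monomers and keeps them out of filaments. At low doses fission yeast cells can still build the actomyosin ring but constrict it poorly, and a cytokinesis monitoring system that includes the phosphatase Clp1p and the 14-3-3 protein Rad24p holds the cells in a state that lets division be completed. Set3p carries a PHD finger and a SET domain and works with Snt1p, Hif2p and the histone deacetylase Hos2p in a complex related to a co-repressor of animal cells. Many stresses also set off the core environmental stress response (CESR) of this yeast, a programme driven in large part by the MAP kinase Sty1p and the transcription factor Atf1p, in which protective genes (CESR-UP) rise and genes of growth and ribosome production (CESR-DN) fall.

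All values below are log2 intensities relative to the median of the same probe set over the 12 arrays, so 0 is that median and not an absence of signal. The deleted gene matched the labels: *set3* stood between -2.59 and -1.97 on the 6 *set3Δ* arrays and between 1.97 and 2.31 on the 6 wild-type arrays. The strains were also far apart in a pair of mating-type genes. The probe set named *mat3-Mc* stood between -3.27 and -2.38 in *set3Δ* and between 2.38 and 3.49 in wild type. Which copy of the gene gave this signal was not tested. *mfm2*, for the M-factor pheromone, stood between -2.97 and -2.05 in *set3Δ* and between 2.05 and 3.07 in wild type. The other markers of M cells (*mfm1*, *mfm3*, *mam1* and *mam2*) and of P cells (*map2* and *map3*) overlapped between the strains. The labels give no mating type. The strain list of the study has a set3::KanMX strain of type P (h+) and a strain without the deletion of type M (h-), with these auxotrophic markers. It does not say which strains were on the arrays. In any comparison between the strains, *set3* and a difference in mating type cannot be told apart. Within *set3Δ* the DMSO arrays were less alike than the LatA arrays, with a median standard deviation of a probe set of 0.114 and 0.0708.

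The number of probe sets called for LatA in *set3Δ* depended on the limits and on single arrays, so it does not measure how far the response extended. Of the 4880 probe sets, 176 were differentially expressed (3.61%), by limma's moderated test at an adjusted p below 0.05 and a fold change above 1.5. Of these, 96 rose (1.97% of all) and 80 fell (1.64% of all), and the change was more than 2-fold for 35 of the former and 19 of the latter. Without the fold limit 607 probe sets passed, 314 rising and 293 falling. The median change over all probe sets was -0.02 on the log2 scale with a standard deviation of 0.33. The 3 LatA and the 3 DMSO values did not overlap for any of the 176, a property shared by 2280 of all probe sets (46.7%). A name of 1 gene was at hand for 142 of the 176. Leaving out single arrays altered this count: 120 probe sets passed without DMSO replicate 2, 18 without DMSO replicate 1, 107 without LatA replicate 3 and 0 without LatA replicate 1 or LatA replicate 2, while all 176 kept their direction each time. Every gene list below therefore also had 0 calls without LatA replicate 1 or LatA replicate 2. At an unadjusted p below 0.05, 1373 and 1118 probe sets passed without LatA replicate 1 and 2, against 1805 with all 6 arrays.

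**Figure D1:**
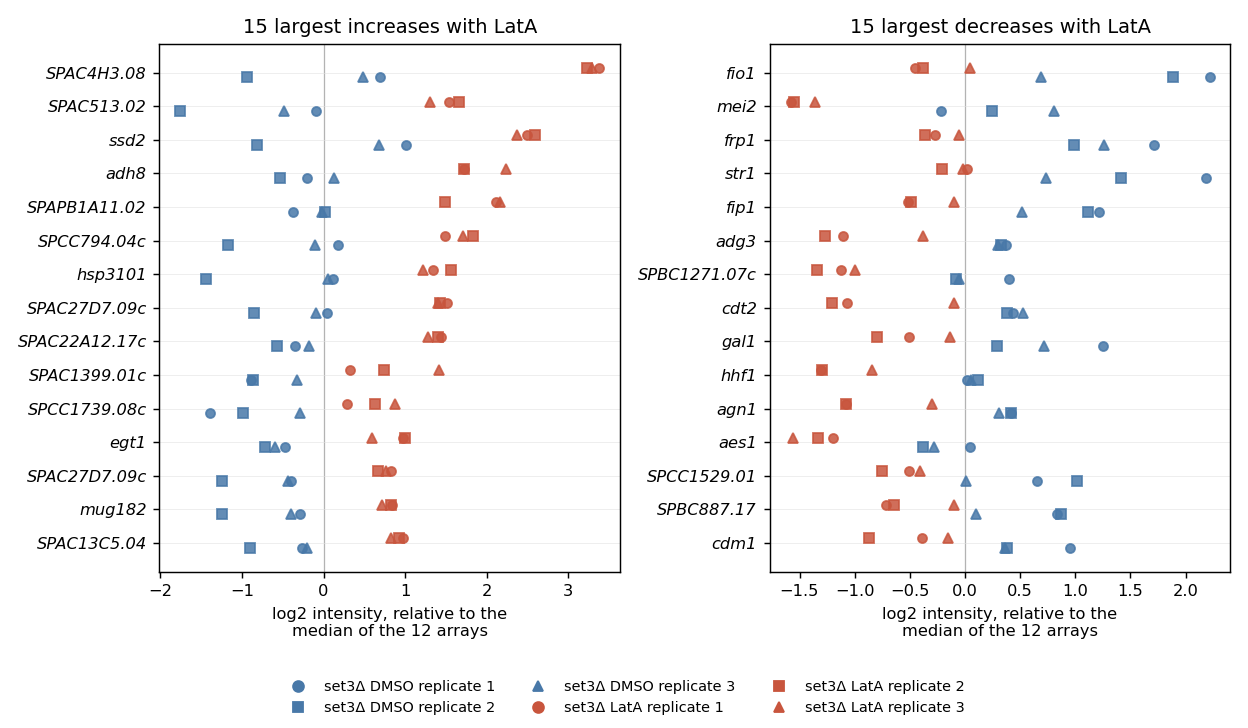
Log2 intensity relative to the median of the 12 arrays (x axis) in the 6 *set3Δ* arrays, for the 15 largest increases (left) and the 15 largest decreases (right) among differentially expressed probe sets with the name of 1 gene; marker shape gives the replicate. DMSO replicate 2 lies lowest of the DMSO arrays for most of the increases, as for *hsp3101* at -1.44, and LatA replicate 3 lies nearest to DMSO for several of the decreases, as for *cdt2* at -0.10.

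The largest increase belonged to SPAC4H3.08, a predicted short chain dehydrogenase. It stood at 0.69, -0.94 and 0.48 on the DMSO arrays and at 3.38, 3.23 and 3.29 on the LatA arrays, a 9.34-fold rise (3.22 ± 0.42 SE on the log2 scale, adjusted p = 0.0199). SPAC513.02, of the phosphoglycerate mutase family, went from -0.09, -1.75 and -0.49 to 1.53, 1.66 and 1.31, which is 4.86-fold. In both genes the second DMSO array was the lowest and the LatA arrays lay close together, above every DMSO array.

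The next named genes by size of the increase followed a similar course. *ssd2*, a predicted succinate semialdehyde dehydrogenase, stood at 1.01, -0.82 and 0.68 with DMSO and at 2.50, 2.59 and 2.36 with LatA, 4.57-fold higher. *adh8*, a predicted alcohol dehydrogenase, stood at -0.20, -0.53 and 0.13 and then at 1.73, 1.72 and 2.24, 4.28-fold higher. SPAC22A12.17c, another short chain dehydrogenase, moved from -0.35, -0.56 and -0.18 to 1.43, 1.41 and 1.28, and its 3.34-fold rise had one of the smallest errors among the leading genes (1.74 ± 0.11 SE, adjusted p = 0.0133). SPCC1739.08c, of the same predicted family, rose 2.80-fold.

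Members of the Hsp31 family, small proteins related to DJ-1 that detoxify glyoxals, also rose. *hsp3101* stood at 0.11, -1.44 and 0.05 with DMSO and at 1.35, 1.56 and 1.22 with LatA, a 3.49-fold rise, and *hsp3102* and *hsp3103* rose 2.24-fold and 2.07-fold. The fourth measured member, *hsp3104*, changed by -0.09 ± 0.23 SE (adjusted p = 0.813). The glutathione S-transferase gene *gst2* rose 2.41-fold, and *egt1*, which starts the synthesis of the antioxidant ergothioneine, rose 2.73-fold from -0.47, -0.71 and -0.59 to 0.97, 1.00 and 0.60.

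SPAPB1A11.02, a predicted esterase or lipase, was the single increase whose difference from wild type passed the test. It stood at -0.38, 0.02 and -0.02 with DMSO and at 2.12, 1.49 and 2.16 with LatA in *set3Δ*, a 4.13-fold rise (adjusted p = 0.0178). In wild type its change was 0.18 (adjusted p = 0.218). The membrane transporter SPCC794.04c rose 4.12-fold, the predicted purine permease SPAC1399.01c 2.85-fold, and SPAC27D7.09c, of unknown function, 3.36-fold and 2.72-fold on its pair of probe sets.

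CESR-UP genes gave increases alone and CESR-DN genes decreases alone. Of 136 CESR-UP probe sets, 21 rose (15.4%, against 1.97% of all probe sets) and 0 fell, with a median change of 0.47 against -0.02 over all probe sets. SPAC4H3.08, SPAC513.02, *ssd2* and *adh8* were the 4 largest. Of 104 CESR-DN probe sets, 0 rose and 10 fell (9.62%, against 1.64% of all), with a median of -0.33. The 4 largest decreases there were those of *mei2*, which encodes an RNA-binding protein needed for meiosis, *agn1*, a glucanase of cell separation, the predicted uracil permease SPBC887.17 and the phosphate transporter *pho84*, and 2 of the 10, *set7* and *ani1*, are also in the list of ribosome biogenesis genes. These counts rested on single arrays. The numbers for CESR-UP and CESR-DN were 1 and 2 without DMSO replicate 1, 28 and 5 without DMSO replicate 2, 18 and 21 without DMSO replicate 3, 9 and 3 without LatA replicate 3, and 0 and 0 without LatA replicate 1 or LatA replicate 2. In wild type 79 CESR-UP probe sets rose and 2 fell (median 0.77), and 69 CESR-DN probe sets fell and 0 rose (median -0.75). The difference between the strains passed for 0 members of either list.

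The mean over CESR-UP showed how unlike the DMSO arrays were. It stood at 0.15, -0.69 and -0.02 on DMSO replicates 1 to 3 and at 0.46, 0.44 and 0.31 with LatA, and the mean over CESR-DN stood at 0.14, 0.37 and 0.03 and then at -0.15, -0.25 and -0.14. The second DMSO array lay far below the others for CESR-UP and above them for CESR-DN. Of the 96 probe sets that rose, that array was the lowest of the 3 DMSO arrays in 82, and of the 80 that fell it was the highest in 40. The CESR score, the first mean minus the second, was 0.589 ± 0.123 (SD, n = 3) with LatA and -0.364 ± 0.603 (SD, n = 3) with DMSO, a difference of 0.953 (exact two-sided permutation test, p = 0.1, the smallest that 3 against 3 arrays allow).

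**Figure D2:**
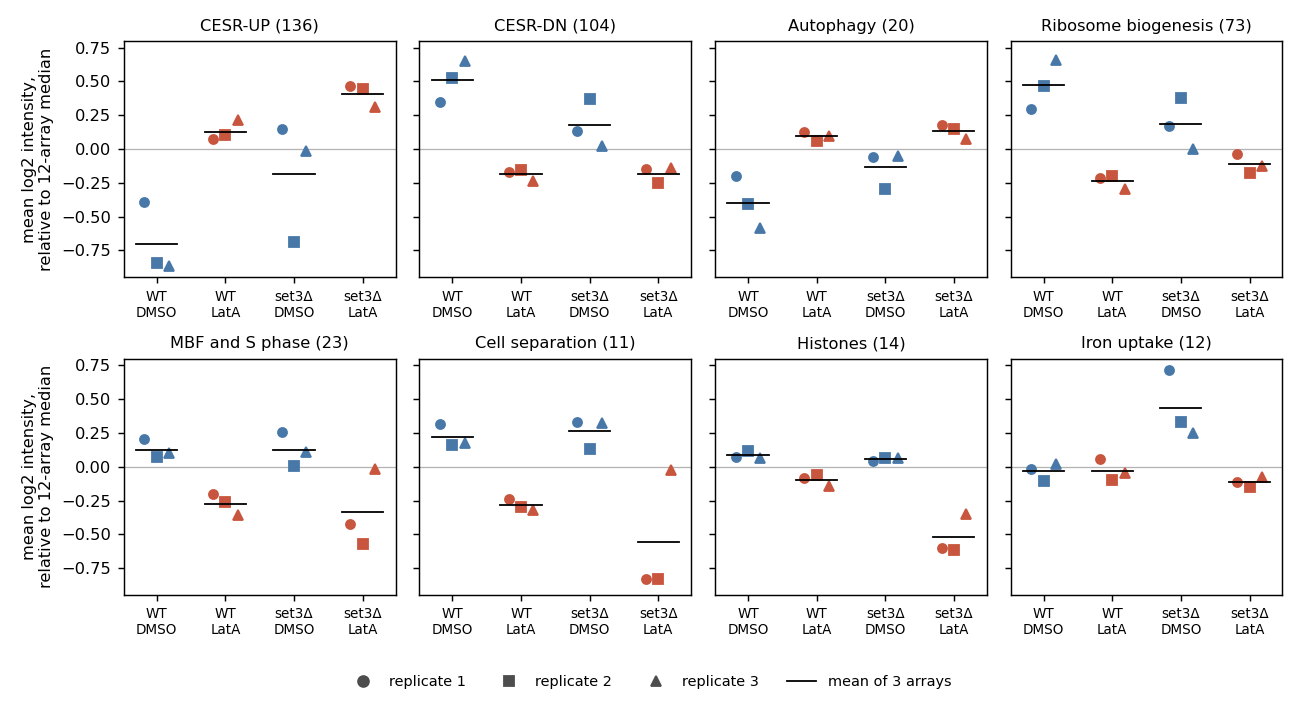
Mean log2 intensity of a gene list relative to the median of the 12 arrays (y axis) on each array of the 4 groups, with the number of probe sets in brackets and a line at the mean of 3 arrays. DMSO replicate 2 of *set3Δ* sits at -0.69 for CESR-UP, and LatA replicate 3 of *set3Δ* sits at -0.03 for cell separation genes while the other LatA arrays sit at -0.83.

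Among the 559 probe sets annotated to the cellular response to stress, 42 rose and 9 fell (9.12% in all, against 3.61% of all probe sets), with a median of 0.15. The 42 became 4 without DMSO replicate 1 and 18 without LatA replicate 3. Autophagy and vacuole genes gave 3 of 20 that rose (against 1.97% of all probe sets) and 0 that fell, with a median of 0.15: the kinase *atg1* (1.63-fold), the ubiquitin-like *atg8* (1.54-fold) and *atg1801* (1.54-fold), a lipid-binding WD repeat protein. These 3 became 0 without DMSO replicate 1, 1 without DMSO replicate 2 or LatA replicate 3, and 4 without DMSO replicate 3. *atg1* stood at -0.21, -0.40 and -0.15 with DMSO and at 0.57, 0.42 and 0.36 with LatA. Of 22 genes of oxidative stress defence, *gst2* alone rose and *grx4* alone fell, and the catalase gene *ctt1* changed by 0.62 (adjusted p = 0.167). Its LatA values of 0.42, 0.45 and 0.29 lay above DMSO values of 0.22, -0.90 and -0.03, which were spread widely.

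Several classical stress genes did not pass the test. No member was differentially expressed among 17 genes of the Sty1p pathway (median 0.10), 19 heat shock genes (median 0.09), 10 genes of trehalose and glycerol metabolism (median 0.26) or 10 of the cell integrity MAP kinase pathway (median 0.04). The largest change among the heat shock genes was that of the chaperone gene *ssa1*, 0.91 ± 0.57 SE (adjusted p = 0.287), with overlapping DMSO values of 0.82, -1.37 and 0.33 and LatA values of 1.04, 1.05 and 0.41. The phosphatase gene *pyp2*, the trehalase gene *ntp1* and the kinase gene *mkh1* changed by 0.60, 0.58 and 0.53, with adjusted p-values of 0.215, 0.224 and 0.0442, the last under the fold limit.

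The largest decrease was that of *fio1*, 1 of 4 iron uptake genes that fell. In reductive iron uptake a ferric reductase (Frp1p) frees iron, and a multicopper oxidase (Fio1p) and a permease (Fip1p) carry it across the plasma membrane, while Str1p takes up siderophore-bound iron. These 4 genes fell, out of 12 genes of iron uptake and its control (33.3%, against 1.64% of all probe sets), and 0 rose. The median over the 12 was -0.07, and the number that fell was 1 without DMSO replicate 1 and 2 without DMSO replicate 2 or LatA replicate 3. *fio1* stood at 2.22, 1.88 and 0.69 with DMSO and at -0.46, -0.38 and 0.05 with LatA, 3.63-fold lower (-1.86 ± 0.40 SE, adjusted p = 0.0407). *frp1* went from 1.72, 0.99 and 1.26 to -0.27, -0.36 and -0.06, 2.94-fold lower with a smaller error (-1.55 ± 0.19 SE, adjusted p = 0.0185).

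*str1* (2.18, 1.41 and 0.74 to 0.02, -0.21 and -0.02) was 2.85-fold lower and *fip1* (1.22, 1.11 and 0.52 to -0.52, -0.49 and -0.10) 2.49-fold lower. The DMSO array nearest to LatA was replicate 3 in *fio1*, *str1* and *fip1* and replicate 2 in *frp1*, and the groups overlapped in none of the 4. In wild type the DMSO means were 0.50, 0.03, 0.28 and 0.16 for *fio1*, *frp1*, *str1* and *fip1*, below every *set3Δ* DMSO array in each case, although 1 wild-type DMSO array reached 1.18 in *fio1* and 1.203 in *str1*. *fio1* changed by -0.97 with LatA in wild type (adjusted p = 0.0394), the other 3 genes did not pass there, and *sib1* rose by 0.74 (adjusted p = 0.0299).

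The siderophore synthesis genes *sib1* and *sib2* changed by -0.03 and -0.46 in *set3Δ* (adjusted p = 0.885 and 0.0974). The iron repressor genes *fep1* and *php4* changed by 0.08 and -0.05, with adjusted p-values of 0.44 and 0.826. *grx4*, a monothiol glutaredoxin that conveys iron status to both repressors, stood at 0.27, 0.27 and 0.04 with DMSO and at -0.47, -0.54 and -0.48 with LatA, 1.61-fold lower (adjusted p = 0.0184).

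A second group of decreases consisted of genes of mating signalling and entry into meiosis, which nitrogen starvation normally induces. Of 15 such genes, 4 fell (26.7%, against 1.64% of all probe sets) and 0 rose. The median over the 15 was -0.12 with 6 changes above 0, and 1 gene fell without DMSO replicate 1 and 2 without DMSO replicate 2 or 3. *mei2* stood at -0.22, 0.25 and 0.81 with DMSO and at -1.58, -1.55 and -1.36 with LatA, 3.42-fold lower (-1.77 ± 0.25 SE, adjusted p = 0.0223). *ste4*, an adaptor of the pheromone MAP kinase cascade, fell 2.05-fold, from 0.70, 0.65 and 0.51 to -0.22, -0.31 and -0.71, and *spk1*, the MAP kinase itself, fell 2.00-fold, from 0.25, 0.28 and 0.44 to -0.32, -0.60 and -1.11.

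*ste6*, the exchange factor of Ras1p, fell 1.75-fold. Outside that list *ste7*, which also acts in mating, fell 1.81-fold. Of 11 probe sets for mating genes of M cells 1 fell, *mfm2*, 1.52-fold, and of 5 for genes of P cells 1 fell, the transcription factor gene *map1*, 1.64-fold. On all *set3Δ* arrays *mfm2* stood far below wild type, and how far its signal lay above background could not be judged. The medians of these lists were -0.11 and 0.01, 4 of the 11 and 3 of the 5 changes were above 0, and 0 members rose. *ste11*, the transcription factor that drives most of these genes, went from 0.06, 0.00 and 0.18 to -0.27, -0.26 and -0.42, a change of -0.40 (adjusted p = 0.0305) under the fold limit. The kinase genes *byr1* and *byr2* of the same cascade changed by -0.03 and 0.47 and did not pass. In wild type, *mei2*, *ste4* and *spk1* changed by 0.19, 0.03 and 0.63, none past the test. The differences between the strains for these 3 genes were -1.97, -1.06 and -1.63 (adjusted p = 0.128, 0.169 and 0.166).

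**Figure D3:**
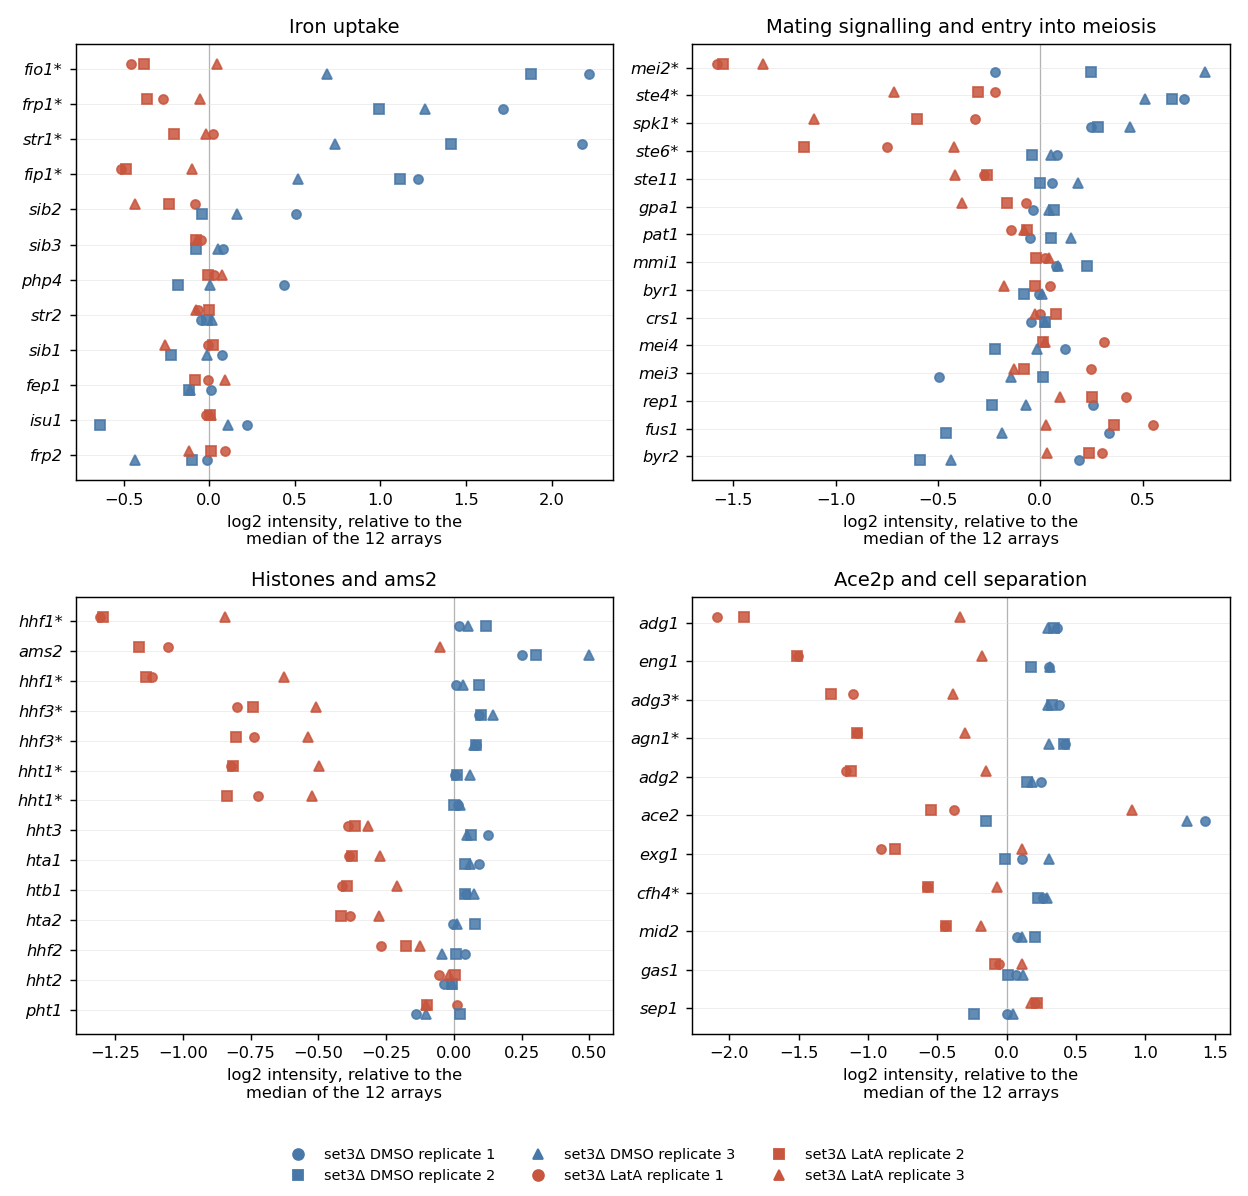
Log2 intensity relative to the median of the 12 arrays (x axis) in the 6 *set3Δ* arrays for every measured member of 4 gene lists, ordered by the change with LatA; an asterisk marks the differentially expressed probe sets and marker shape gives the replicate. The 4 iron uptake genes that fell separate from the remaining 8, and LatA replicate 3 lies apart from the other LatA arrays for the cell separation genes, at -0.34 for *adg1* against -2.09 and -1.89.

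Histone genes also fell, with little spread between the DMSO arrays. Of 14 probe sets for 11 genes, which are the core histones and their transcriptional activator *ams2*, 6 fell (42.9%, against 1.64% of all probe sets) and 0 rose, with a median of -0.57. In 12 of the 14 the LatA values lay below every DMSO value, against 1232 of all 4880 probe sets. Without DMSO replicate 1 the number that fell was 0. The 6 were both probe sets of *hhf1* and *hhf3*, which encode histone H4, and of *hht1*, which encodes histone H3. *hhf1* stood at 0.02, 0.12 and 0.05 with DMSO and at -1.31, -1.30 and -0.84 with LatA, 2.32-fold lower (-1.21 ± 0.13 SE, adjusted p = 0.0184). *hhf3* fell 1.74-fold and 1.71-fold and *hht1* 1.67-fold and 1.63-fold on their probe sets.

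The H2A genes *hta1* and *hta2*, the H2B gene *htb1* and the H3 gene *hht3* changed by -0.41, -0.39, -0.39 and -0.44, each with an adjusted p of at most 0.0276 but under the fold limit. *hht2* and *pht1*, the latter for a replication-independent H2A variant, changed by 0.00 and 0.01. Outside the list *cnp1*, the centromeric H3 variant, fell 1.52-fold. The H3 and H4 genes are near-identical copies, so a probe set of one can take signal from another. In wild type 1 of the 14 probe sets fell, that of *ams2* (-0.84), and the median was -0.11. The difference between the strains had an unadjusted p below 0.05 in 10 of the 14 and passed after adjustment in 0, the smallest adjusted p being 0.0523 for *hht1*.

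Genes of cell separation, which the transcription factor Ace2p induces at the end of division, gave 3 of 11 that fell (27.3%, against 1.64% of all probe sets) and 0 that rose, with a median of -0.87. They were *adg3*, *agn1* and *cfh4*. *adg3*, a predicted beta-glucosidase, stood at 0.38, 0.33 and 0.30 with DMSO and at -1.11, -1.27 and -0.38 with LatA, 2.38-fold lower (-1.25 ± 0.23 SE, adjusted p = 0.0302). *agn1*, the alpha-glucanase that helps to split the daughter cells, went from 0.42, 0.41 and 0.31 to -1.08, -1.08 and -0.30. LatA replicate 3 was nearest to DMSO in all 11 genes.

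How many of these genes passed depended on several single arrays, LatA replicate 3 among them. *adg1* stood at 0.36, 0.34 and 0.30 and then at -2.09, -1.89 and -0.34, a change of -1.78 with an adjusted p of 0.0564. *eng1*, the endoglucanase of the septum, stood at 0.30, 0.18 and 0.31 and then at -1.50, -1.51 and -0.18 (adjusted p = 0.0652). Without LatA replicate 3, 7 of the 11 genes fell, without DMSO replicate 1 or DMSO replicate 2 0 fell, and with all 6 arrays 5 of the 11 fell in wild type.

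Genes of S phase that the MBF factor controls had LatA replicate 3 apart as well. Of 23, with a median of -0.35, 1 fell (4.35%, against 1.64% of all probe sets) and 0 rose. It was *cdt2*, which helps to destroy replication factors, 2.36-fold lower from 0.43, 0.38 and 0.53 to -1.07, -1.20 and -0.10. The ribonucleotide reductase gene *cdc22* stood at 0.40, 0.14 and 0.26 and then at -1.77, -1.69 and -0.14 (adjusted p = 0.0764), and *dut1* at 0.42, 0.18 and 0.27 and then at -1.67, -1.73 and -0.18 (adjusted p = 0.0675). Without LatA replicate 3, 8 of the 23 fell, whereas without any other single array 0 fell, as with array weights or robust moderation. In wild type 9 fell and 1 rose. What set LatA replicate 3 apart for genes of the division cycle was not tested.

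None of the listed genes of the ring and its regulators passed both limits in *set3Δ*. No call was made among 22 genes of the actomyosin ring (median 0.03), 17 of the actin patch (median 0.18), 14 of the septation initiation network (median 0.15), 12 septum synthases (median -0.02), 5 septins (median 0.16) or 6 genes of the cytokinesis monitoring system (median -0.10). The largest changes in each were those of the alpha-actinin gene *ain1* (0.34), the actin monomer-binding *twf1* (0.42), the polo kinase gene *plo1* (0.41), the chitin synthase-related *chs2* (-0.61), the septin gene *spn7* (0.54) and the cyclin gene *lsc1* (-0.37). Of these, *ain1*, *twf1* and *spn7* had adjusted p-values of 0.0495, 0.022 and 0.0494 under the fold limit, and *plo1*, *chs2* and *lsc1* were above 0.05. Without the fold limit 2 ring genes, 4 actin patch genes and 1 gene each of the septation network, septum synthases and septins rose, and 0 fell. Over all 4880 probe sets 314 rose and 293 fell on that basis. In 10 of the 17 actin patch genes every LatA value lay above every DMSO value, against 1048 of all 4880 probe sets. *clp1*, *rad24* and *lsk1* changed by -0.11, 0.05 and -0.08, and *snt1*, *hif2* and *hos2*, the partners of the deleted gene, by 0.19, 0.04 and -0.13, with adjusted p-values from 0.0847 to 0.688.

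Other lists without a call were 19 genes of mitotic control (median 0.08), 12 of the PKA pathway (-0.03), 11 other histone deacetylase genes (0.00), 8 of copper and zinc supply (0.27), 10 of uracil (-0.01) and 15 of purine (-0.25) metabolism, 13 permeases (0.03), 14 sterol genes (0.01), 14 translation factors (-0.10), 46 genes of the respiratory chain (0.13), 52 of mitochondrial ribosomes (-0.05) and 12 *wtf* probe sets (0.18). All 29 proteasome genes changed by less than the fold limit, with a median of 0.19. Of 117 *mug* and *meu* genes, first found by their induction in meiosis, 4 rose and 1 fell (4.27%, against 3.61% of all probe sets).

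In the broader list of 332 cytokinesis genes of the study, 3 rose and 9 fell (3.61%), a share equal to the 3.61% of all probe sets. Besides the cell separation genes it holds *cdm1*, a subunit of DNA polymerase delta, which fell 2.05-fold, and *osr2*, which rose 2.23-fold. The list's median change was 0.00.

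Of 12 genes of phosphate and thiamine supply, 3 fell (25.0%, against 1.64% of all probe sets) and 0 rose, with a median of -0.29: the phosphate transporter *pho84*, the acid phosphatase *pho4* and *nc-pho1*, a non-coding transcript upstream of the *pho1* gene. *pho84* stood at 0.02, 0.55 and 0.25 with DMSO and at -0.70, -0.70 and -0.78 with LatA, 2.00-fold lower (adjusted p = 0.0203). The number that fell was 1 without DMSO replicate 1 or DMSO replicate 2 and 0 without LatA replicate 3. Of 17 genes of hexose transport and glucose repression 1 fell, the hexose transporter gene *ght3*, 1.71-fold, and 0 rose (median 0.02). Of 16 genes of glycolysis and fermentation *adh8* rose and the alcohol dehydrogenase gene *adh4* fell, 1.98-fold (median 0.04). The galactokinase gene *gal1* fell 2.35-fold. *gal1* went from 1.25, 0.29 and 0.71 to -0.50, -0.80 and -0.13.

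Genes of ribosome production gave few calls. Of 73 ribosome biogenesis probe sets 2 fell (*set7*, 1.88-fold, and *ani1*, 1.58-fold) and 0 rose, although 72 of the 73 changes were below 0, with a median of -0.28. The members of this list were matched by gene name, and a role of *set7* in ribosome production was not checked. Of 29 genes of RNA polymerases I and III 1 fell, *rpc11*, 1.55-fold. Of 127 probe sets for ribosomal proteins 0 were called, and their median was -0.06. In wild type the same ribosome biogenesis list gave 50 that fell and 0 that rose, with a median of -0.71.

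Genes near chromosome ends moved in both directions. Of 100 probe sets from 98 genes in clones at the ends of the chromosomes, 7 rose and 14 fell (21.0%, against 3.61% of all probe sets), with a median of -0.19. The numbers that rose and fell were 0 and 2 without DMSO replicate 1, 4 and 15 without DMSO replicate 2, 5 and 13 without DMSO replicate 3, and 6 and 10 without LatA replicate 3. *frp1* and *gal1* were the largest decreases of this list. *aes1* stood at 0.04, -0.39 and -0.28 with DMSO and at -1.20, -1.33 and -1.56 with LatA, 2.23-fold lower (adjusted p = 0.0185), and *hhy1* rose 2.49-fold. In wild type 13 members rose and 13 fell, with a median of 0.06.

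Some of the changed genes were also neighbours. Of 2984 pairs of adjacent protein-coding genes that were both measured, 8 pairs, made of 15 genes, were both differentially expressed. In 7 of the 8 both genes moved in 1 direction. Among all 3874 measured genes with a place in this order, 134 were differentially expressed, so some such pairs arise without any grouping. Whether 8 exceeds that number was not tested. *fip1* and *fio1*, *hhf1* and *hht1*, *grt1* and *fah1*, and *fah1* and the predicted L-asparaginase gene SPBPB8B6.05c fell in pairs, and *tms1* and *adh8*, *osr2* and *gst2*, and *ams1* and *dhd1* rose in pairs. SPAC513.02, which rose, lies beside *mfm2*, which fell from the low level given above.

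The LatA response of wild type, fitted on 6 other arrays, gave 708 differentially expressed probe sets (14.5%), 352 that rose (7.21%) and 356 that fell (7.3%). The strains shared 110 of these, 62.5% of the *set3Δ* list and 15.5% of the wild-type list, 108 in the same direction. Of the 96 that rose in *set3Δ*, 77 rose in wild type, with medians of 0.80 and 0.99 in the 2 strains. Of the 80 that fell, 31 fell in wild type, with medians of -0.80 and -0.52. Of the 352 and 356 of wild type, 317 and 349 had the same sign in *set3Δ*, with medians of 0.50 and -0.35. Across all 4880 probe sets the changes of the strains correlated with r = 0.66 (across genes, which are not independent replicates).

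**Figure D4:**
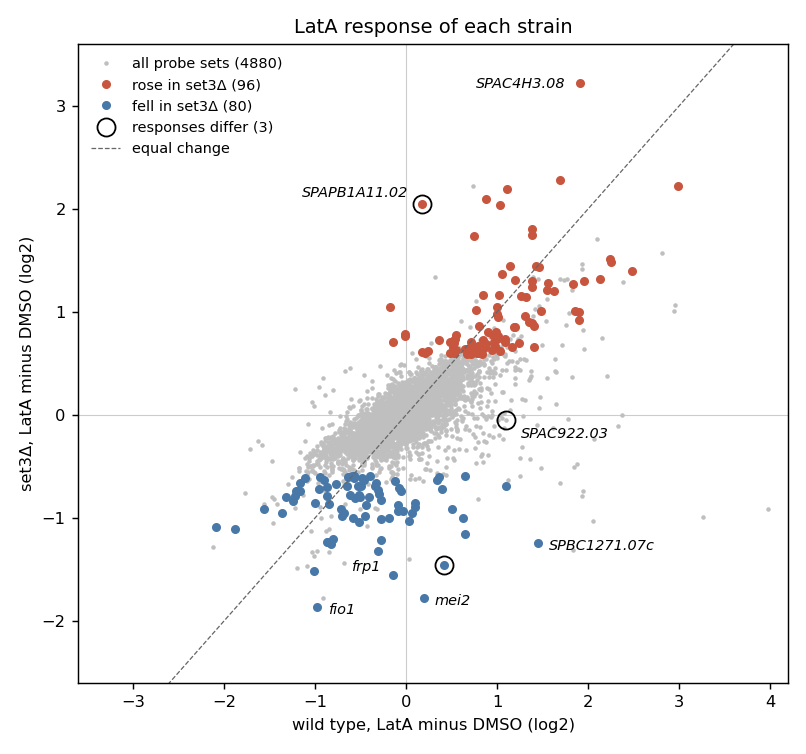
Change with LatA in *set3Δ* (y axis) against that in wild type (x axis), both as log2 differences, for 4880 probe sets, with the 96 that rose and the 80 that fell in *set3Δ* in colour and circles around the 3 whose responses differed between the strains. Most increases lie to the right of 0 on the x axis, whereas the decreases of *mei2* (-1.77 against 0.19) and SPBC1271.07c (-1.24 against 1.45) are opposite in sign.

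The difference between the responses was also tested itself. It passed for 3 probe sets (0.0615% of all, 986 at an unadjusted p below 0.05). This count rested on single arrays, with 260 probe sets without wild-type DMSO replicate 1, 25 without *set3Δ* LatA replicate 3, 5 without wild-type DMSO replicate 3 and 0 or 1 without any other single array. SPAPB1A11.02, described above, rose in *set3Δ* by 1.87 more than in wild type (adjusted p = 0.0389). SPAC922.03, a predicted deaminase, stood at -0.03, -0.16 and 0.21 with DMSO and at -0.07, -0.14 and 0.09 with LatA in *set3Δ*, and rose by 1.10 in wild type (difference -1.15, adjusted p = 0.0308).

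The last of them was the probe set 1771089_at, for which no gene name was at hand. It fell in *set3Δ* from 0.76, 1.16 and 1.06 to -0.75, -0.44 and -0.19 and changed by 0.42 in wild type (adjusted p = 0.0337). SPBC1271.07c, a predicted N-acetyltransferase, passed in both strains in opposite directions. In *set3Δ* it went from 0.40, -0.08 and -0.05 to -1.13, -1.34 and -0.996, 2.37-fold lower, and in wild type it rose by 1.45 (adjusted p = 0.0219), but the difference of -2.69 had an adjusted p of 0.0563. Of the 176 probe sets called in *set3Δ*, 50 (28.4%) had an unadjusted p below 0.05 for the difference, against 20.2% of all probe sets.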

How the data were processed

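RNA of 12 cultures was hybridized by the authors to 12 one-colour arrays. They normalized the arrays with RMA in Genespring GX. The deposited values are log2 intensities, each probe set centred on its median over the 12 arrays (read from the values, whose medians are 0 to within 7e-07), so signal over background could not be judged, all probe sets were kept, and precision is limited by the number of arrays. No sequences or coordinates were used here.

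Probe sets were named from the platform annotation, updated through RefSeq (assembly ASM294v3), or from the study's supplementary lists, whose largest sheet was available here only to 1999 lines: 3917 of 4880 had 1 gene, 19 several and 944 none. Of the names, 1052 came from the study's lists alone. The order of neighbouring genes came from RefSeq.

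Groups were compared with limma 3.58.1 (R 4.3.3, statmod 1.5.0), with Benjamini-Hochberg adjustment over all probe sets and calls at an adjusted p below 0.05 and a fold change above 1.5: LatA against DMSO on the 6 arrays of each strain, and the interaction of strain and treatment on all 12. The members, the 45 gene lists and tests were chosen with earlier results of these data known. From the list of genes near chromosome ends 4 groups of clones were dropped after the values were seen, because RefSeq places them away from the ends. Lists are described by counts and medians, with no test.

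Genes were named by a rule: the 15 largest changes in each direction, up to 4 called members of a list (all where at most 5 were called, or the largest change where 0 were), up to 8 called differences in each direction, and *set3*, *snt1*, *hif2*, *hos2*, *clp1*, *rad24* and *lsk1*. Others were chosen after their values were seen: *hsp3103*, *hsp3104*, *ctt1*, *ste7*, *ste11*, *byr1*, *byr2*, *sib1*, *sib2*, *fep1*, *php4*, *hht1*, *hht2*, *hht3*, *hta1*, *hta2*, *htb1*, *pht1*, *cnp1*, *ams2*, *adg1*, *eng1*, *cdc22*, *dut1*, the neighbouring pairs, those under other observations and 1771089_at.

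On simulated arrays with the spread of these probe sets (4880 run), 83.6% of added changes of 0.8, 91% of 1.2 and 100% of 2 were recovered for the *set3Δ* comparison. The noise was drawn independently for each probe set and array. Shifts that many probe sets of 1 array share, as in DMSO replicate 2, were not simulated. These shares therefore do not measure recovery on the real arrays. Alternatives were a fit of all 12 arrays, the replicate number as a block, each probe set's own variance, array weights, robust moderation, centring of each array on its median, only probe sets specific to 1 gene, other limits, and leaving out each array in turn. Figures were drawn with matplotlib 3.10.9 and permutation tests run with scipy.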

Additional observations from a re-analysis of the deposited data

Results flagged for a closer look

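For 3 probe sets the LatA response differed between the strains by the interaction test over all 12 arrays. The response of *set3Δ* minus that of wild type was 1.87 for SPAPB1A11.02, where the change was 2.05 in *set3Δ* and 0.18 in wild type. It was -1.15 for SPAC922.03, where the changes were -0.05 and 1.10. It was -1.87 for the probe set 1771089_at, where they were -1.45 and 0.42. On these arrays *mat3-Mc* and *mfm2* differed with the strain, while the other mating-type markers overlapped. The part of a difference in mating type in the 3 differences was not tested.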

How the results depend on the processing

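Whether arrays of DMSO and LatA with the same replicate number came from paired cultures is not stated. Deviations from the group means of *set3Δ* arrays with the same number correlated at 0.28, -0.18 and 0.00. Those with different numbers ranged from -0.26 to 0.31. With so few arrays these values cannot settle whether the samples were paired, so the fit with a block is given beside the main one. With the replicate number as a block 0 of the 176 *set3Δ* calls passed, in every list as well (1725 probe sets at an unadjusted p below 0.05, smallest adjusted p 0.059), while all 176 kept their direction. The block gave 704 calls in wild type and 4 for the difference.

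With each probe set's own variance 5 probe sets passed, 5 rising and 0 falling (1 in CESR-UP, 0 in CESR-DN, 2 rising in stress, 2 over all lists and 0 in iron, meiotic entry, histones and cell separation). An adjusted p below 0.01 left 0 everywhere in *set3Δ*. A fold change above 2 left 54 (35 rising, 19 falling; 42 in lists, 3 in CESR-DN, 25 in stress, 2 each in meiotic entry and histones), and no fold limit gave 607 (314 and 293; 230 in lists, 75 in stress, 10 histone probe sets). At an adjusted p below 0.1, 154 list members passed, with 34 in CESR-UP, 17 in CESR-DN, 64 in stress and 6 in cell separation. One fit of all 12 arrays gave 233 calls, with 33 in CESR-UP, 2 in meiotic entry and 6 in cell separation. Without probe sets that can match several genes 3 histone probe sets fell. Centring arrays on their median gave 8 differences between the strains.

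Leaving out 1 array at a time gave 0 to 218 calls in *set3Δ* (0 to 99 rising, 0 to 119 falling), 558 to 990 in wild type, 0 to 260 differences (260 without wild-type DMSO replicate 1) and 0 to 114 calls over the lists, against 102. The ranges were 0 to 28 in CESR-UP, 0 to 21 in CESR-DN, 0 to 38 in stress, 0 to 4 in iron, 0 to 3 in meiotic entry, 0 to 7 in histones and 0 to 7 in cell separation, and 0.605 to 1.14 for the CESR score difference. Among the named probe sets, those whose change switched sign were not called: *atp8* (-0.80 to 0.15), SPAC922.03 (-0.13 to 0.054), *set3* (-0.12 to 0.13), *hif2* (-0.019 to 0.068), *mfm1* (-0.018 to 0.14) and *map3* (-0.13 to 0.12, and -0.0069 with array weights). The cause of these shifts was not tested. A filter on dim probe sets and quantile normalization were not run, since the values are centred per probe set, nor was the promoter search.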

Other observations

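Increases not described above, chosen after their values were seen, included those of metabolic enzymes and a kinase. *gdh2*, the NAD-dependent glutamate dehydrogenase, stood at -0.34, -0.47 and -0.38 with DMSO and at 0.69, 0.53 and 0.51 with LatA in *set3Δ*, 1.97-fold higher with a small error (0.97 ± 0.07 SE, adjusted p = 0.0133). *car1*, an arginase, rose 2.22-fold, from -0.54, -0.99 and -0.12 to 0.46, 0.48 and 0.86. *dhd1*, a predicted dihydrodiol dehydrogenase, rose 2.47-fold, from -0.63, -0.68 and -0.39 to 0.69, 0.76 and 0.78, with the same adjusted p of 0.0133. *nce103*, of the carbonic anhydrase family, stood at -0.06, -0.11 and -0.07 and then at 0.62, 0.66 and 0.84, 1.73-fold higher, and changed by -0.02 in wild type (difference 0.81, adjusted p = 0.133). *hri1*, a kinase of the translation factor eIF2, rose 2.01-fold.

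Among the decreases, *klp8*, a kinesin-like protein, stood at 0.42, 0.23 and 0.28 with DMSO and at -0.74, -0.76 and -0.36 with LatA, 1.90-fold lower, and changed by -0.09 in wild type (difference -0.84, adjusted p = 0.15). The DNA-binding protein gene *sap1* fell 1.84-fold, from 0.61, 0.11 and 0.46 to -0.54, -0.56 and -0.33. The largest increase without a gene name at hand was that of 1770232_at, which went from -0.92, -1.12 and -0.99 to 0.79, 0.99 and 1.83, 4.65-fold higher, and rose by 2.99 in wild type. The metallothionein gene *zym1* changed by 1.58 (adjusted p = 0.0725) with DMSO values of -0.43, -1.91 and -0.11 and LatA values of 0.81, 0.87 and 0.61.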
